A study of Mus musculus with 44 samples.

Results

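Interferon beta, encoded by Ifnb1, and 8 of the interferon regulatory factors (IRFs), the transcription factors that switch it on and respond to it, were followed in mouse bone marrow-derived macrophages (BMDMs) through 44 RNA-seq libraries. The genes were taken by symbol from 4 tables of raw gene counts. Each of the 9 symbols, Ifnb1, Irf1, Irf2, Irf3, Irf4, Irf5, Irf7, Irf8 and Irf9, matched 1 row of the 24940 genes listed in each table.

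Toll-like receptors and cytosolic RNA sensors activate the kinase TBK1, which phosphorylates IRF3 and IRF7. These factors then act with NFκB at the promoter of Ifnb1, and the secreted cytokine signals through its receptor to the ISGF3 complex, of which IRF9 is a subunit and which induces antiviral genes and Irf7 itself. IRF5 serves the MyD88 arm of Toll-like receptor signaling, IRF1 and IRF2 are an activator and its antagonist at shared sites, and IRF8 and IRF4 bind with partners such as PU.1 and are known for roles in macrophage lineage and in alternative activation.

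BMDMs are macrophages grown in culture from marrow precursors, here of adult C57BL/6 mice by the study's methods, with the strain also in the library names other than those of NKO_KLA and RANKL, and the 22 groups held 2 libraries each. The first table (the NCoR table) compared NCoR flox/flox cells (WT) with cells that also carried LysMCre (NKO), a Cre under the Lyz2 promoter that deletes floxed genes in myeloid cells. Both genotypes received vehicle (Veh), KLA (Kdo2 lipid A, which stimulates TLR4), poly I:C (a mimic of double-stranded RNA, read by TLR3), IFNβ or IL4 for 6 h, or RANKL, the osteoclast cytokine, for 12 h. The second table held wild-type cells with vehicle, KLA, or KLA with RGFP966, an inhibitor of the deacetylase HDAC3. The third held Pgc1b flox/flox cells without and with LysMCre under vehicle or KLA. The fourth held wild-type cells with DMSO, DMSO and KLA, or KLA with an inhibitor of TBK1 (TBK1i). Vehicle and KLA were given for 6 h in each. By the study's methods both inhibitors were added with the serum starvation, 12 h before KLA. No group received an inhibitor with vehicle, so its effects on resting cells and on the KLA response cannot be told apart. The labels did not say whether the libraries of a group came from separate mice or cultures, so p-values measure the spread between these libraries, which may be technical.

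The stretches of 250 bases before the start sites of 5 of the genes are shown, those of the 4 genes in which an NFκB, STAT or IRF motif was found and that of Irf7, which was called in more comparisons than any other of the 9. All 9 genes matched RefSeq windows (12 windows, GRCm38.p6), each from 250 bases before to 50 bases after an annotated start, and 1 window per gene is printed here, 5′ to 3′ on the strand of the gene. Ifnb1 is at chr4:88522795-88523044 on the minus strand, Irf1 at chr11:53769764-53770013 on the plus strand, Irf2 at chr8:46739495-46739744 on the plus strand, Irf8 at chr8:120736108-120736357 on the plus strand and Irf7 at chr7:141266425-141266674 on the minus strand. Capitals mark motif matches.
Ifnb1: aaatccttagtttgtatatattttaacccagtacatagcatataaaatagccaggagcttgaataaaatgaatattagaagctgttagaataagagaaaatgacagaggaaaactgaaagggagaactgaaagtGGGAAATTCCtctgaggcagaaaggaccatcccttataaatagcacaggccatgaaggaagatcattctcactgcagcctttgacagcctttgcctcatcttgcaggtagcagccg
Irf1: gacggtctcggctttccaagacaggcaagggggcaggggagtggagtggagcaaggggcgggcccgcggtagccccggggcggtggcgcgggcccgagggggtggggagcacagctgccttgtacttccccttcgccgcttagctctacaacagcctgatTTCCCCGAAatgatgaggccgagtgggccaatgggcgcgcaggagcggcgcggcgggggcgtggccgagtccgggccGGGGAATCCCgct
Irf2: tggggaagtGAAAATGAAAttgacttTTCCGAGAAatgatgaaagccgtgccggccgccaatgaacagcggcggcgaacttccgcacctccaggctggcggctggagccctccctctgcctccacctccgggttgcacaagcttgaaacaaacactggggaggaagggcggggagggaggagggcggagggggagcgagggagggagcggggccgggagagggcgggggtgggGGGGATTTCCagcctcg
Irf8: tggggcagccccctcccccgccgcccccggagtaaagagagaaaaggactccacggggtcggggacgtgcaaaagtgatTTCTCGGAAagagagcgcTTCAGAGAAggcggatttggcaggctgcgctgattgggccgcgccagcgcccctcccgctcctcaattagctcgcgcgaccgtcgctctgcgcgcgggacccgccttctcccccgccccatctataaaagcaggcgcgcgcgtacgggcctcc
Irf7: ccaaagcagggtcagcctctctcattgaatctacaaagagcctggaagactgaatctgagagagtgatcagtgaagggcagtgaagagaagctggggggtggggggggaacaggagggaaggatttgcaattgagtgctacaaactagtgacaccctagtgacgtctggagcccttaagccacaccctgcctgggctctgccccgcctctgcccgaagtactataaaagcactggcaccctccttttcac

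The motifs were a core of the IFN-stimulated response element (GAAANNGAAA), a core of the STAT site known as GAS (TTCNNNGAA) and the NFκB motif, each searched on both strands, and no match overlapped a match of another motif. The GAS core was found in the windows of 3 genes, once in Irf1, once in Irf2 and at 2 places in Irf8, against 8.30% of all 32851 promoter windows. The NFκB motif was found in 3 genes, Ifnb1, Irf1 and Irf2, against 8.46% of all windows. The response element core occurred in 1 gene, Irf2, against 3.44% of all windows. The Irf7 window printed here held none of these letters. Only these patterns were searched, so an absent match in Irf7, Ifnb1 or any other gene says nothing about other sites or about binding.

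Levels are given as counts per 1e6 gene counts (CPM) scaled by TMM within a table, the first library of a group before the second. A gene was called higher or lower where edgeR's quasi-likelihood test gave a Benjamini-Hochberg adjusted p below 0.05 and the fold change exceeded 1.5. Gene counts ranged from 8.32 to 16.8 M per library (M, 1e6), and 3 counts, the floor below which a gene was taken as not detected, corresponded to 0.179 to 0.36 CPM before TMM scaling. Ncor1 was at 49.4 to 65 CPM in the 12 NKO libraries and at 133 to 215 CPM in the other 32. Apart from RANKL, Lyz2, into which Cre is inserted, was at 3094 to 4935 CPM in NKO and at 6160 to 9288 CPM in WT. In the Pgc1b table Lyz2 was at 4393 to 4533 CPM in the libraries labelled Cre and at 8049 to 8325 CPM in the others. Ppargc1b over its whole transcript was not lower in the libraries labelled Cre (3.41 to 10.3 CPM) than in those without (2.88 to 7.81 CPM), which does not check the deletion. Macrophage markers were detected in every library, with 8 of 8 over the floor in each group and a sum of 9536 to 24940 CPM.

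Date stamps in the library names placed WT_KLA 115 days and RANKL 536 days before the vehicle libraries of the NCoR table, and NKO_KLA a further 1401 days before WT_KLA. NKO_KLA libraries and all 8 libraries of the Pgc1b table were male by sex-linked transcripts, the other 34 female. Scaling by library totals alone in place of TMM lowered the median log2 fold change of all genes by 0.69 to 0.78 in the 4 comparisons of KLA with vehicle in control cells, and moved it by over 0.1 in 13 of 28 comparisons. Calls and directions that depended on this choice are given with the gene.

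In resting cells Irf5 was the most abundant of the IRFs. Per transcript length, in transcripts per 1e6 transcripts (TPM), Irf5 was at 340 to 395 TPM in the 6 vehicle groups, Irf8 at 166 to 241 TPM, Irf2 at 103 to 158 TPM and Irf1 at 58.9 to 129 TPM. Below them lay Irf9 at 44.6 to 76.1 TPM, Irf3 at 33.8 to 48.2 TPM and Irf7 at 16.1 to 108 TPM, and Irf4 was the lowest at 1 to 2.76 TPM. Ifnb1 was at 0 to 1 count in all 12 vehicle libraries.

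Stimulation replaced Irf5 by Irf7 at the top of the family. Irf7 made up 9.59% of the summed IRF TPM in WT_Veh, 61.1% in WT_KLA, 50.3% in WT_PolyIC and 55.8% in WT_IFNb. Irf5 stayed the most abundant with IL4 (29.1% in WT_IL4) and with RANKL (39.7% in WT_RANKL). Irf1 ranked highest in 2 groups alone, Pgc1b_flox_Cre_KLA (49.8%) and TBK1i_KLA (48.2%), where Irf7 fell to 11% and 0.701% of the sum.

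**Figure D1:**
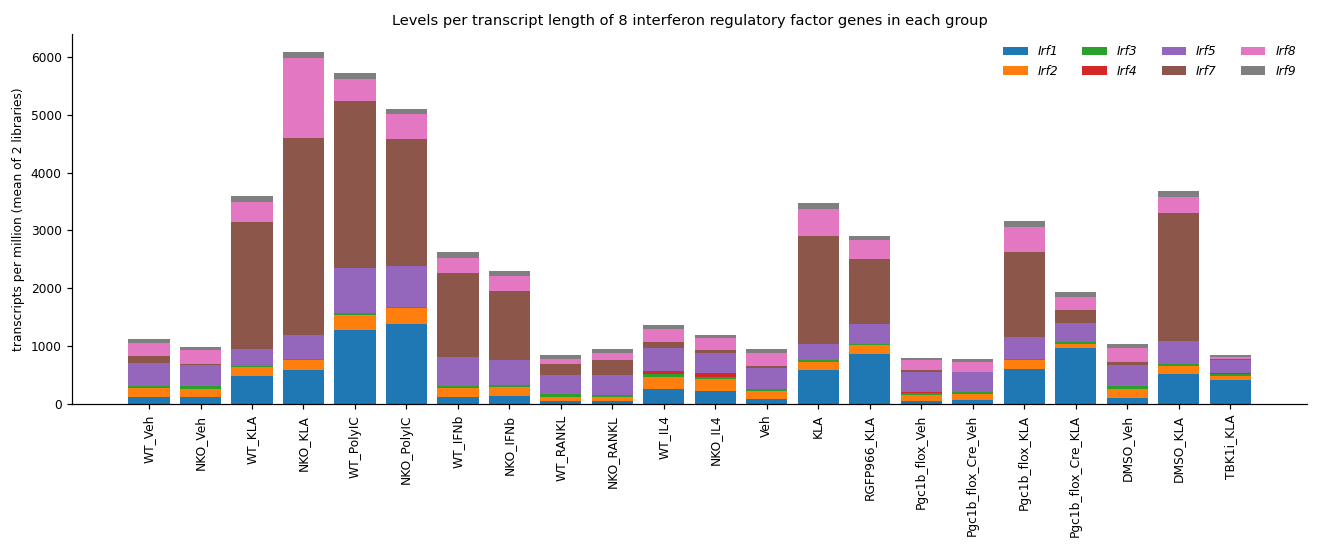
Stacked bars of the TPM of the 8 IRF genes, 1 bar per group (mean of 2 libraries), with TPM on the y axis. Irf5 is the largest segment in the 6 vehicle groups and Irf7 in the groups with KLA, poly I:C or IFNβ, apart from Pgc1b_flox_Cre_KLA and TBK1i_KLA, where Irf1 is the largest.

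On a joint scale of all 4 tables the genes differed in where they peaked. Irf7 and Irf8 were highest in NKO_KLA (4031 and 2523 CPM) and lowest in TBK1i_KLA (4.89 and 54.8 CPM), and Irf9 was highest in KLA of the RGFP966 table (167 CPM) and lowest in TBK1i_KLA (34.1 CPM). Irf1 and Irf2 were highest in WT_PolyIC (1539 and 360 CPM) and lowest in WT_RANKL (40.3 and 61.5 CPM). Irf5 ran from 961 CPM in WT_PolyIC to 230 CPM in TBK1i_KLA, and Irf4 from 114 CPM in NKO_IL4 to 0.377 CPM in WT_PolyIC.

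Neighbors in these orders often overlapped. Of the 21 neighboring pairs of groups, the libraries overlapped in 18 for Irf3, 16 for Ifnb1, 13 for Irf4, 10 each for Irf5 and Irf9, 8 for Irf2, 7 each for Irf1 and Irf8 and 5 for Irf7. Irf3 spanned 25.7 to 43.8 CPM over the 22 groups. For Ifnb1, 13 of 22 groups were at or under the floor. Date stamps in the library names differ between the tables and within the NCoR table. The order of the groups therefore also carries any difference between stamps.

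**Figure D2:**
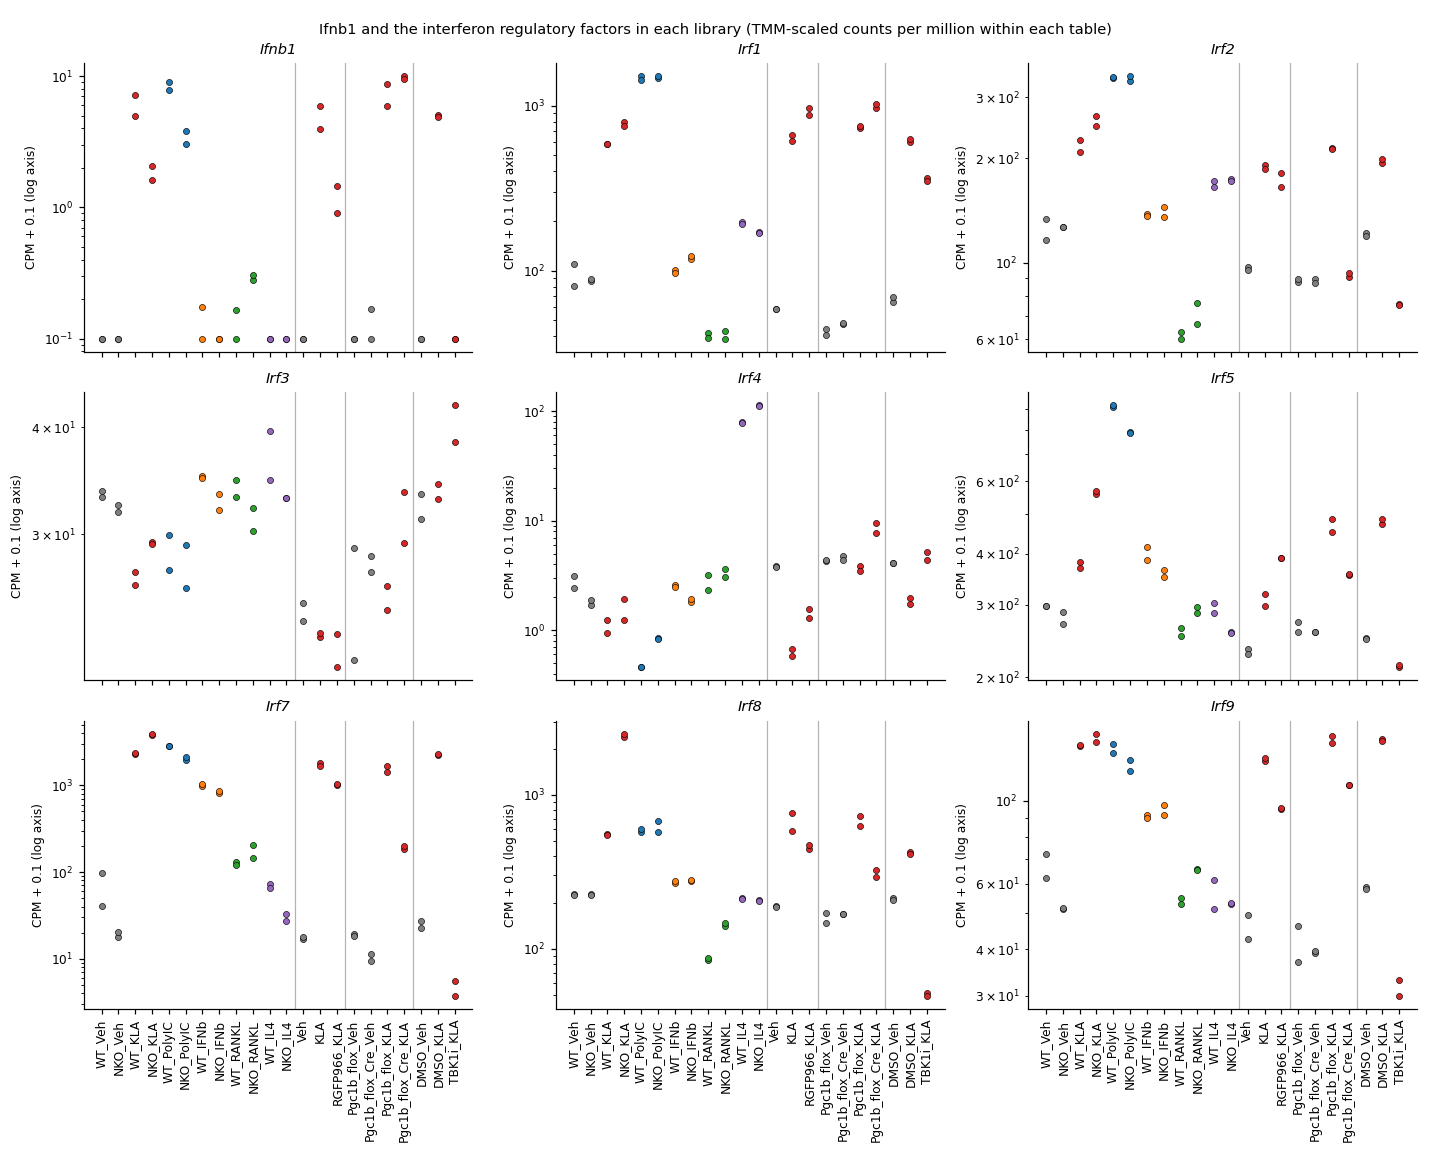
CPM + 0.1 (TMM-scaled within each table, log axis) of the 9 genes in the 22 groups, with 1 panel per gene, 1 point per library, colors for the ligand and grey lines between the 4 tables. Irf7 runs from 3.61 CPM in TBK1i_KLA to 3946 CPM in NKO_KLA, while Irf3 stays between 20.9 and 42.4 CPM.

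The first comparison asked how each ligand changed the genes in WT cells. With KLA, 6 of the 9 genes were called higher, against 25.4% of all genes tested, and 1 was called lower, against 32.3% (13.8% and 54.8% with totals in place of TMM). With poly I:C, 7 were called higher (22.2% of all genes) and 1 lower (25%, and 13.1% and 51.7% with totals). All 9 genes passed the filter on low counts in every table, Ifnb1 only through the groups in which it was high.

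In WT cells Ifnb1 was detected with KLA and poly I:C and with no other ligand. It was at 0 counts in both WT_Veh libraries, at 7.04 and 4.83 CPM in WT_KLA and at 7.74 and 8.9 CPM in WT_PolyIC. Both groups lay wholly above vehicle, at least 28.8-fold with KLA and at least 40.4-fold with poly I:C against a floor of 3 counts per library. With IFNβ, the protein encoded by this gene, the 2 libraries held 0 and 1 count, with IL4 0 and 0, and with RANKL 1 and 0.

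Irf7, the factor that sustains interferon production, rose with 4 of the 5 ligands. It was at 40.9 and 97.6 CPM in WT_Veh, 2288 and 2347 CPM in WT_KLA, 2835 and 2853 CPM in WT_PolyIC and 992 and 1029 CPM in WT_IFNb. These stimulated libraries lay far above both vehicle libraries, with log2 fold changes of 5.06 ± 0.28 (SE), 5.36 ± 0.28 and 3.87 ± 0.27. RANKL gave 130 and 120 CPM, a log2 fold change of 0.85 ± 0.27 (edgeR adjusted p = 0.013), and IL4 73.1 and 65.4 CPM, between the vehicle libraries. WT_Veh replicate 2 stood apart from replicate 1. Without it Irf7 differed by 1.61 with RANKL and by 0.76 and called with IL4, and without replicate 1 by 0.36 and -0.50, neither called. In fits of the compared groups alone the calls with IFNβ (adjusted p = 0.071) and RANKL (adjusted p = 0.312) were lost.

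Irf3 was not called in any of 33 comparisons. Its log2 fold changes lay between -0.33 and 0.32, 7 comparisons had an unadjusted p below 0.05, and DESeq2 called it in 0. With totals in place of TMM it was called in 10, lower with KLA and poly I:C (log2 fold change -1.06 with KLA and -0.87 with poly I:C in WT cells). WT_Veh held 33.1 and 33.6 CPM, WT_KLA 26 and 27 CPM. The row counted for Irf3 is a non-coding transcript of the gene, and it shares 88 exonic bases with Bcl2l12 on the opposite strand.

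Irf5 was called higher with poly I:C and not with KLA, a difference between the ligands that was not tested and that spans 2 date stamps. It was at 299 and 299 CPM in WT_Veh, 910 and 921 CPM in WT_PolyIC and 381 and 369 CPM in WT_KLA. The rise with poly I:C was called (log2 fold change 1.62 ± 0.05, edgeR adjusted p = 3.4e-36), whereas with KLA it was 0.33 ± 0.05 and below the fold threshold, and -0.40 with totals. IFNβ gave 385 and 415 CPM, a log2 fold change of 0.42 ± 0.05 that was also below the threshold.

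Irf1 and its antagonist Irf2 rose together, Irf1 the more steeply. Irf1 was at 80.8 and 110 CPM in WT_Veh, 585 and 589 CPM in WT_KLA and 1504 and 1428 CPM in WT_PolyIC, log2 fold changes of 2.62 ± 0.08 and 3.94 ± 0.08. Irf2 was at 116 and 133 CPM in WT_Veh, 226 and 208 CPM in WT_KLA and 342 and 344 CPM in WT_PolyIC, log2 fold changes of 0.80 ± 0.06 and 1.46 ± 0.06. With totals the Irf2 difference with KLA was 0.073 and not called, that with poly I:C stayed called at 0.82, and both rises of Irf1 stayed called. The Irf1 row shares 135 exonic bases with Gm17334 on the opposite strand.

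Irf8 and Irf4, the lineage-associated pair, moved in opposite directions. Irf8 was at 227 and 223 CPM in WT_Veh, 554 and 553 CPM in WT_KLA and 576 and 597 CPM in WT_PolyIC, log2 fold changes of 1.30 ± 0.06 and 1.38 ± 0.06. Irf4 was at 2.34 and 3.01 CPM in WT_Veh, 1.15 and 0.833 CPM in WT_KLA and 0.357 and 0.361 CPM in WT_PolyIC. The libraries of each stimulated group lay on 1 side of vehicle for both genes. The log2 fold change of Irf4 was -1.42 ± 0.38 with KLA (edgeR adjusted p = 0.00074), and with poly I:C its vehicle level was 7.46 times higher (95% counting interval 3.28 to 20.9, from 6 counts against 78). With totals the Irf8 rise with KLA was 0.57 and not called, and that with poly I:C was 0.74 and called.

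Irf9, the subunit that gives ISGF3 its binding site, rose with both KLA and poly I:C under TMM scaling. It was at 62.1 and 71.8 CPM in WT_Veh, 140 and 141 CPM in WT_KLA and 142 and 134 CPM in WT_PolyIC. The log2 fold changes were 1.07 ± 0.07 and 1.04 ± 0.07 (edgeR adjusted p = 4e-21 and 2.8e-21), but 0.34 and 0.40 with totals, not called. With IFNβ it was at 91.8 and 89.8 CPM, a log2 fold change of 0.44 ± 0.07 below the fold threshold.

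**Figure D3:**
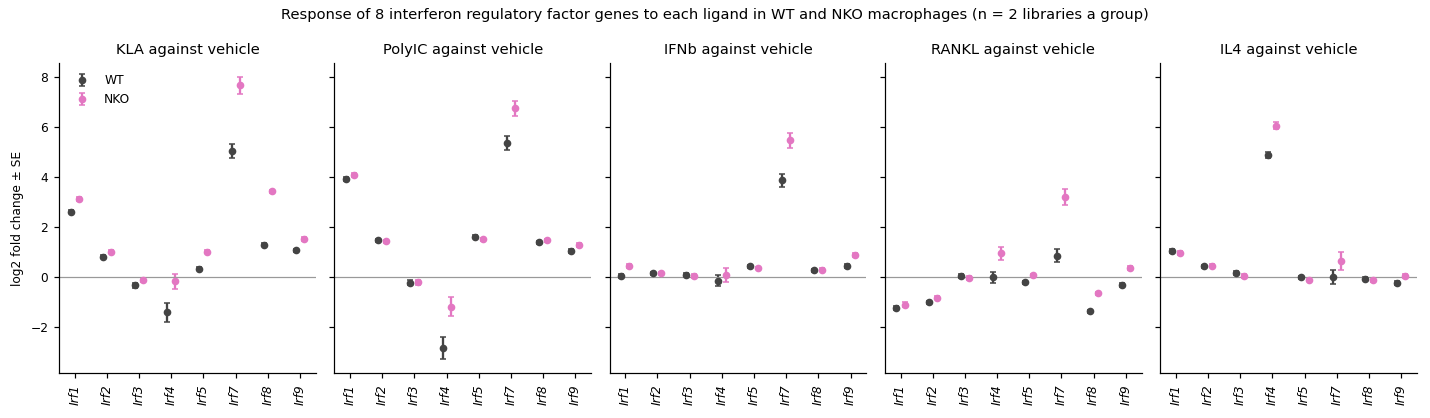
Log2 fold change of the 8 IRF genes (y axis) for each of 5 ligands against vehicle of the same genotype, WT in black and NKO in pink, with bars of 1 SE from edgeR with TMM scaling. In WT cells KLA and poly I:C raise Irf1, Irf2, Irf7, Irf8 and Irf9 (with library totals Irf2, Irf8 and Irf9 are not called with KLA, nor Irf9 with poly I:C), IL4 raises Irf4 (4.88) and Irf1 (1.03), and Irf1, Irf2 and Irf8 are lower in the RANKL libraries.

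IFNβ called 1 of the 9 genes higher, Irf7, against 4.09% of all genes, and 0 lower, against 2.37% (3.37% and 4.3% with totals). Irf1 was at 101 and 97 CPM with IFNβ, within the vehicle range, and Irf2 at 138 and 136 CPM. Poly I:C was then set against IFNβ within the same date stamp, where 7 genes were called higher with poly I:C (20.5% of all genes) and 1 lower (21.5%, and 12.7% and 45.4% with totals). Only Irf3 was not called in that comparison (log2 fold change -0.29 ± 0.09). Irf1 differed by 3.89 ± 0.08 on the log2 scale and Irf7, called with both ligands, by 1.49 ± 0.23. Ifnb1 was 242 times higher with poly I:C (95% counting interval 42.6 to 9609, from 139 counts against 1). With totals the differences of Irf8 (0.58) and Irf9 (0.06) were not called.

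IL4 singled out Irf4, the factor known from alternatively activated macrophages. It called 2 genes higher, against 6.63% of all genes, and 0 lower, against 6.46%. Irf4 was at 79.7 and 78.2 CPM in WT_IL4 against 2.34 and 3.01 CPM in WT_Veh, a 29.4-fold rise (log2 fold change 4.88 ± 0.13, edgeR adjusted p = 1.4e-39). Irf1 was at 197 and 193 CPM with IL4, a log2 fold change of 1.03 ± 0.08. Of 6 IL4 target genes, 4 were called higher and 0 lower, with a median log2 fold change of 5.23 against -0.01 over all genes, including Arg1 (10.73) and Retnla (10.31). Batf3, a partner of IRF4 and IRF8, rose by 4.03 ± 0.19, and Socs1, the feedback inhibitor of cytokine signaling, by 6.11 ± 0.13.

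In the RANKL libraries 3 genes were called lower than in vehicle, against 19.8% of all genes, and 1, Irf7, higher, against 24.1%. These libraries were taken at 12 h and stamped 536 days before the 6 h vehicle. The ligand, its duration, the date and any difference in culture cannot be told apart. Irf8, which restrains osteoclast formation, was at 85 and 87.2 CPM against 227 and 223 CPM in vehicle, a log2 fold change of -1.38 ± 0.06 (edgeR adjusted p = 2.4e-29). Irf1 was at 41.7 and 39.1 CPM and Irf2 at 62.9 and 60.3 CPM, log2 fold changes of -1.24 ± 0.09 and -1.02 ± 0.07. All 3 groups of values lay wholly below vehicle. The library names call these cells osteoclasts and the vehicle cells BMDMs. Osteoclast markers summed to 141 and 136 CPM in WT_RANKL against 121 and 113 CPM in WT_Veh. In NKO they summed to 134 and 148 CPM with RANKL against 204 and 208 CPM with vehicle. Over all groups they ranged from 105 to 237 CPM, the highest in TBK1i_KLA. The 5 neutrophil markers, all over the floor, summed to 990 to 1442 CPM in the RANKL libraries of both genotypes and to at most 22.8 CPM elsewhere, with the defining marker Ly6g at 0.911 to 1.83 CPM. The 4 fibroblast markers summed to 197 to 340 CPM with RANKL and to at most 132 CPM elsewhere. The part of these cells in the results was not tested. In bulk samples fewer cells of a type and less RNA per cell cannot be told apart.

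The remainder of the pathway was described by lists. Of 10 interferon-stimulated target genes, all 10 were called higher with KLA, poly I:C and IFNβ, with median log2 fold changes of 7.25, 7.50 and 3.96 against -0.14, -0.07 and 0 over all genes, and 5 were called lower with IL4. Of 16 sensors, adaptors and kinases upstream of IRFs, 10 rose and 2 fell with KLA, where 25.4% of all genes rose and 32.3% fell (13.8% and 54.8% with totals), and 12 rose and 1 fell with poly I:C, where 22.2% rose and 25% fell (13.1% and 51.7% with totals). Ifih1, the sensor MDA5, rose by 5.41 ± 0.14 with KLA, and Mavs, its mitochondrial adaptor, fell by 1.26 on the log2 scale. Of 8 genes of the interferon receptor and ISGF3, 8 rose with KLA, and 6 rose and 1 fell with poly I:C, where the receptor chain Ifnar1 fell by 0.90. Of 8 partner factors, 4 rose and 3 fell with KLA, the falls near the share of all genes, Batf by 5.42 ± 0.17 and Irf2bp2, a corepressor of IRF2, by -2.51 ± 0.07.

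The response to KLA was measured again in the controls of the other 3 tables, all in wild-type or floxed cells without Cre. The genes called higher numbered 6 in the RGFP966 table (27.9% of all genes), 7 in Pgc1b flox/flox cells (22.8%) and 7 in DMSO-treated cells (29.6%), and those called lower 1, 0 and 1 (32.2%, 25.7% and 29.3%). With totals the shares of all genes higher and lower were 14.7% and 57.5%, 12.2% and 53.7%, and 14.5% and 55.1%. These comparisons used their own vehicle libraries. Ifnb1, at 0 counts in each of those vehicles, could only be called higher.

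Ifnb1 was again at 0 counts in each of these vehicles and was detected in every KLA library. The KLA libraries held 3.82 and 5.77 CPM in the RGFP966 table, 5.83 and 8.67 CPM in the Pgc1b table and 4.97 and 4.74 CPM in the TBK1i table, at least 32.5-fold, 32.6-fold and 26.3-fold above the floor. Irf7 rose by 6.67 ± 0.08, 6.36 ± 0.09 and 6.50 ± 0.05 on the log2 scale, from 17 to 27.1 CPM in vehicle to 1434 to 2271 CPM. Irf1 rose by 3.43 ± 0.06, 4.13 ± 0.07 and 3.19 ± 0.05. Irf8 rose by 1.84 ± 0.09, 2.09 ± 0.08 and 1.01 ± 0.04, the last of which was 0.23 and not called with totals. Irf9 rose by 1.49 ± 0.07, 1.82 ± 0.09 and 1.32 ± 0.06, again with the last not called with totals (0.54).

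Irf4 was called lower with KLA in 2 of these 3 tables. It fell in the RGFP966 table (3.75 and 3.7 to 0.478 and 0.577 CPM, log2 fold change -2.79 ± 0.41) and in the TBK1i table (4.04 and 4.01 to 1.88 and 1.62 CPM, -1.19 ± 0.32). In Pgc1b flox/flox cells it was at 4.22 and 4.22 CPM without and 3.75 and 3.39 CPM with KLA, a log2 fold change of -0.24 ± 0.31 that was not called, though -0.93 and called with totals. Irf5 was called higher in the Pgc1b and TBK1i tables (0.82 ± 0.06 and 0.95 ± 0.04) but not in the RGFP966 table (0.42 ± 0.06, and -0.35 with totals). With totals neither call was made (0.13 and 0.17), and Irf2, called higher in all 3 tables, was not called in any, its log2 fold change in DMSO-treated cells turning from 0.71 to -0.071. The differences between tables were not tested.

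The next comparison asked how the genes differed between NKO and WT cells within each condition. No group carried LysMCre alone, so loss of NCoR and the presence of Cre cannot be told apart. Under vehicle, 0 of the 9 genes were called higher in NKO, against 2.4% of all genes, and 2 lower, against 3.8%. Irf7 was at 17.5 and 20.2 CPM in NKO_Veh against 40.9 and 97.6 CPM in WT_Veh, a log2 fold change of -1.87 ± 0.33 (edgeR adjusted p = 0.00099). Both NKO libraries lay below both WT libraries, which themselves differed by more than 2-fold, and the log2 fold change was -1.11 without WT_Veh replicate 2 and -2.36 without replicate 1. In a fit of these 2 groups alone the adjusted p was 0.253. Of the 10 interferon-stimulated targets, 9 were called lower in NKO_Veh (median log2 fold change -1.77). This count rests on the same WT_Veh libraries, and its dependence on either of them was not examined. Irf4 was at 1.58 and 1.77 CPM against 2.34 and 3.01 CPM (-0.66 ± 0.25, edgeR adjusted p = 0.049), a call lost without NKO_Veh replicate 1 (-0.59) or 2 (-0.76) or WT_Veh replicate 2 (-0.47) and in DESeq2 (adjusted p = 0.102).

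With KLA, 3 genes were called higher in NKO (21% of all genes) and 1 lower (19%). Irf8 stood out, at 2374 and 2500 CPM in NKO_KLA against 554 and 553 CPM in WT_KLA, a 4.41-fold difference (log2 fold change 2.14 ± 0.06, edgeR adjusted p = 2.1e-39). On the joint scale the NKO_KLA libraries held 2459 and 2588 CPM of Irf8. The highest library of any other group there was at 993 CPM, in KLA of the RGFP966 table. Irf7 was at 3841 and 3946 CPM against 2288 and 2347 CPM (0.75 ± 0.23, a call lost without either WT_KLA library). Irf5 was at 557 and 569 CPM against 381 and 369 CPM (0.59 ± 0.05, and 0.53 and not called with totals). Its 1.501-fold difference lay just over the fold threshold. Ifnb1 went the other way, at 1.98 and 1.52 CPM against 7.04 and 4.83 CPM (-1.75 ± 0.36, edgeR adjusted p = 3.3e-05).

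Genotype, date stamp and sex cannot be told apart at KLA, since the NKO_KLA libraries shared neither date nor sex with WT_KLA. With the KLA controls of the other 3 tables in place of WT_KLA, in a joint fit, the log2 fold change of Irf8 was 1.56 to 2.49, of Irf7 0.74 to 1.32 and of Ifnb1 -2.03 to -1.50, all called. Against the male Pgc1b_flox_KLA libraries Irf8 was 1.83 ± 0.11. The joint fit gave 0.19 to 0.57 for Irf5, below the fold threshold against every control including WT_KLA. The 5 markers of conventional dendritic cells, some of which need Irf8 to develop, summed to 52.9 and 46.7 CPM in NKO_KLA and to 6.06 and 6 CPM in WT_KLA, and to at most 17.5 CPM in any other library, with 4 of 5 over the floor in NKO_KLA and 3 in WT_KLA. Flt3, a defining marker, was at 0 in WT_KLA and at 0.258 and 0.0952 CPM in NKO_KLA. Their part in the Irf8 difference was not tested.

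Ifnb1 was also lower in NKO with poly I:C, where both genotypes shared a date stamp. It was at 2.96 and 3.73 CPM in NKO_PolyIC against 7.74 and 8.9 CPM in WT_PolyIC, a log2 fold change of -1.31 ± 0.30 (edgeR adjusted p = 0.00085). The groups did not overlap, and Ifnb1 was the 1 gene called lower (2.92% of all genes), with 0 called higher (3.01%). Irf7 was at 1978 and 2115 CPM against 2835 and 2853 CPM, a log2 fold change of -0.47 ± 0.23 that was not called, and Irf8 at 573 and 674 CPM against 576 and 597 CPM. The call for Ifnb1 could not be made under a filter on a mean of 5 CPM, which leaves the gene out.

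The other ligands left fewer differences. With RANKL, Irf8 alone was called higher, at 140 and 148 CPM against 85 and 87.2 CPM (0.74 ± 0.06), against 6.21% of all genes, and 0 genes were called lower (6.99%, and 4.62% and 9.3% with totals). With IL4, Irf7 alone was called lower, at 27 and 32.4 CPM against 73.1 and 65.4 CPM (-1.22 ± 0.31, edgeR adjusted p = 0.016, lost without NKO_IL4 replicate 1 or 2 or WT_IL4 replicate 1), against 2.33% of all genes, and 0 were called higher (1.9%, and 1.44% higher and 3.18% lower with totals). Irf4 with IL4 was at 114 and 112 CPM in NKO against 79.7 and 78.2 CPM in WT, 0.52 ± 0.08 and below the fold threshold. With IFNβ edgeR called 0 genes in either direction (1.86% and 1.94% of all genes, and 1.45% and 2.73% with totals), DESeq2 called 0, and 2 of the 9 had an unadjusted p below 0.05. Irf7 with IFNβ was at 827 and 863 CPM against 992 and 1029 CPM.

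Interaction terms tested whether the ligand response itself differed between genotypes. In the KLA terms genotype, date stamp and sex cannot be told apart, since the NKO_KLA libraries shared neither date nor sex with the others. Irf7 responded more in NKO than in WT cells to KLA (2.62 ± 0.40 on the log2 scale), RANKL (2.35 ± 0.42) and poly I:C (1.39 ± 0.40, edgeR adjusted p = 0.046). In each case the lower Irf7 level of NKO_Veh entered the difference, and without WT_Veh replicate 2 these terms came to 1.86, 1.59 and 0.63, the last not called. The poly I:C term also lost its call without any 1 of the other libraries in it but WT_Veh replicate 1. Irf8 responded more to KLA (2.13 ± 0.08) and RANKL (0.73 ± 0.08), and Irf5 more to KLA (0.68 ± 0.07). Irf9 responded more to RANKL (0.66 ± 0.10). Irf4 responded more to KLA (1.25 ± 0.51), RANKL (0.97 ± 0.34) and IL4 (1.18 ± 0.26), and each of these 3 calls was lost without WT_Veh replicate 2 (1.06, 0.77 and 0.99). With each of the 8 libraries left out in turn, the Irf4 call was lost in 5 fits for KLA, 4 for RANKL and 1 for IL4, and DESeq2 called neither of the first 2 (adjusted p = 0.072 and 0.054). The other losses for KLA were without NKO_KLA replicate 1 (0.87), NKO_Veh replicate 1 (1.18) and WT_KLA replicate 1 (1.50) or 2 (1.04), and those for RANKL without NKO_RANKL replicate 2 (0.84), NKO_Veh replicate 1 (0.89) and WT_RANKL replicate 1 (0.75). Of all genes, 36.9% were called in either direction with KLA, 14.2% with RANKL, 3.24% with poly I:C and 0.604% with IL4. For IFNβ 0 of the 9 genes were called by edgeR (0.604% of all genes), 1 by DESeq2, and 3 had an unadjusted p below 0.05. With totals the shares called higher and lower were 3.64% and 0.761% for poly I:C and 0.306% and 0.343% for IL4.

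Inhibition of HDAC3 before and during KLA treatment was tested with RGFP966. Of the 9 genes, 1 was called higher than with KLA alone (15.8% of all genes) and 2 lower (9.54%). Ifnb1 was at 0.811 and 1.35 CPM with RGFP966 against 3.82 and 5.77 CPM, a log2 fold change of -2.16 ± 0.37 (edgeR adjusted p = 6e-07). Irf7 was at 1016 and 1046 CPM against 1830 and 1680 CPM (-0.77 ± 0.05), and Irf4 rose, at 1.47 and 1.2 CPM against 0.478 and 0.577 CPM (1.32 ± 0.51, edgeR adjusted p = 0.025). None of these groups overlapped. The call for Irf4, from 5 to 20 counts per library, was not made by DESeq2 (adjusted p = 0.117) and was lost without KLA replicate 1 (1.20) or 2 (1.46) or RGFP966_KLA replicate 1 (1.16).

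The other members moved by less than 1.5-fold with RGFP966. Irf1 was at 969 and 884 CPM against 661 and 607 CPM (0.55 ± 0.06), Irf5 at 390 and 390 CPM against 319 and 298 CPM (0.34 ± 0.06), and Irf8 at 443 and 476 CPM against 763 and 586 CPM (-0.55 ± 0.09, but -0.62 and called by DESeq2). Irf9 was at 94.8 and 95.3 CPM against 128 and 131 CPM (-0.44 ± 0.07). Each of the 4 had an adjusted p below 0.05, with Irf1 and Irf5 higher and Irf8 and Irf9 lower. Against vehicle, the cells with RGFP966 and KLA had 7 genes called higher (28% of all genes) and 1 lower (26.3%, and 14.4% and 53.9% with totals), of which Irf2 (0.12), Irf5 (0.026), Irf8 (0.56) and Irf9 (0.32) were not called with totals. Ifnb1 was then at least 7.33-fold above the floor. Of the 10 interferon-stimulated targets 3 were called lower with RGFP966 than with KLA alone, and Socs1 fell by 2.42 on the log2 scale. RGFP966_KLA replicate 2 carried a stamp 14 days after replicate 1.

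In Pgc1b flox/flox cells the libraries labelled Cre differed little from those without Cre under vehicle. 0 of the 9 genes were called higher (0.164% of all genes), and 1, Irf7, was called lower (0.139%), at 9.29 and 11.3 CPM against 19.4 and 18.2 CPM (log2 fold change -0.87 ± 0.12, edgeR adjusted p = 1.9e-05). With KLA, 1 was called higher in the libraries labelled Cre (13.2% of all genes) and 3 lower (12.9%, and 19.5% and 9.09% with totals). Irf7 was at 185 and 199 CPM against 1661 and 1434 CPM, 8.07-fold lower (-3.01 ± 0.07, edgeR adjusted p = 1.2e-26). Irf2 was at 91 and 92.9 CPM against 214 and 212 CPM (-1.21 ± 0.08) and Irf8 at 291 and 326 CPM against 732 and 627 CPM (-1.14 ± 0.07). Irf4 was at 7.65 and 9.44 CPM against 3.75 and 3.39 CPM (1.25 ± 0.30).

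Ifnb1 did not follow Irf7 there. It was at 9.89 and 9.44 CPM in Pgc1b_flox_Cre_KLA and at 5.83 and 8.67 CPM in Pgc1b_flox_KLA, a log2 fold change of 0.42 ± 0.32 that was not called (edgeR adjusted p = 0.3). Both values in the libraries labelled Cre were above both without Cre. Irf1 was at 967 and 1030 CPM against 733 and 755 CPM, 0.42 ± 0.06 and below the fold threshold, but 0.63 and called with totals. All 10 interferon-stimulated targets were called lower (median log2 fold change -1.62 against 0 over all genes), as were 5 of the 8 receptor and ISGF3 genes, Usp18, which limits signaling from the receptor, by -2.24 ± 0.07, and 7 of the 16 sensors and adaptors, the poly I:C receptor Tlr3 by -2.02 ± 0.09.

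Within the libraries labelled Cre, KLA against vehicle called 6 genes higher (19.2% of all genes) and 0 lower (20.6%, and 11.5% and 41.7% with totals), of which Irf4 (0.93 ± 0.27, and 0.47 with totals) and Irf8 (0.88 ± 0.08, and 0.41) were not called with totals. Irf2 was at 91 and 92.9 CPM with KLA and 89.4 and 87.4 CPM without (0.056 ± 0.08, and -0.41 with totals). Irf7 rose 18.7-fold there against 82.4-fold in cells without Cre, and Ifnb1 was 307 times higher with KLA (95% counting interval 54.5 to 12195, from 200 counts against 1). The interaction of Cre with KLA was called for Irf7 (-2.14 ± 0.14), Irf8 (-1.21 ± 0.11), Irf2 (-1.20 ± 0.11) and Irf4 (1.17 ± 0.41, adjusted p = 0.081 in DESeq2), against 22.8% of all genes in either direction (18.7% higher and 7.2% lower with totals). The Irf4 call was lost in 5 of 8 fits that left out 1 library, without Pgc1b_flox_Cre_KLA replicate 2 (1.02), Pgc1b_flox_Cre_Veh replicate 2 (1.12), Pgc1b_flox_KLA replicate 2 (1.13) and Pgc1b_flox_Veh replicate 1 (1.18) or 2 (1.17).

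Inhibition of TBK1, the kinase that activates IRF3 and IRF7, called more of the 9 genes than any other perturbation of KLA-treated cells. With TBK1i and KLA, 7 of the 9 were called lower than with DMSO and KLA, against 18.3% of all genes, and 1 was called higher, against 15% (11.6% and 32.3% with totals). Ifnb1 was at 0 counts in both TBK1i_KLA libraries against 4.97 and 4.74 CPM, at least 15.2-fold lower. It is 1 of the 7, but it passed the filter on low counts here only through DMSO_KLA and could only be called lower. Irf7 was at 3.61 and 5.41 CPM against 2264 and 2271 CPM, 507-fold lower (log2 fold change -8.99 ± 0.07). Irf8 was at 51.8 and 49.3 CPM against 429 and 413 CPM (-3.06 ± 0.06), and Irf9 at 33.1 and 29.9 CPM against 146 and 145 CPM (-2.20 ± 0.07).

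Irf1 kept most of its level when TBK1 was inhibited. It was at 365 and 348 CPM with TBK1i against 601 and 626 CPM without (-0.78 ± 0.04, but -0.41 and not called with totals). Irf2 was at 75.9 and 75.1 CPM against 194 and 199 CPM (-1.38 ± 0.06) and Irf5 at 211 and 213 CPM against 472 and 486 CPM (-1.17 ± 0.04). Irf4 rose, at 5.11 and 4.29 CPM against 1.88 and 1.62 CPM (1.42 ± 0.33, edgeR adjusted p = 5.9e-05). Irf3 was at 38.4 and 42.4 CPM against 34.3 and 32.9 CPM (0.26 ± 0.10), below the fold threshold, but 0.63 and called higher with totals.

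Against DMSO_Veh, 4 genes were lower in TBK1i_KLA than in unstimulated cells (30.5% of all genes) and 1 was higher (26.8%, and 43.6% and 16% with totals). No group held TBK1i with vehicle, so an effect of the inhibitor on resting cells cannot be told apart here. Irf7 was at 27.1 and 22.8 CPM in DMSO_Veh. TBK1i_KLA lay 5.59-fold below this level of resting cells without inhibitor (-2.48 ± 0.13). Irf8 (-2.05 ± 0.06), Irf9 (-0.88 ± 0.08) and Irf2 (-0.67 ± 0.06) were also below it, and Irf5 (-0.23 ± 0.04) was called lower with totals alone (-0.64). Irf1 was 5.32-fold above it (2.41 ± 0.05). Of the 10 interferon-stimulated targets, all 10 were called lower with TBK1i than with DMSO and KLA, with a median log2 fold change of -9.64 against 0.01 over all genes. Tbk1 itself was at 163 and 167 CPM in TBK1i_KLA, 233 and 250 CPM in DMSO_KLA and 87.5 and 92.9 CPM in DMSO_Veh.

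**Figure D4:**
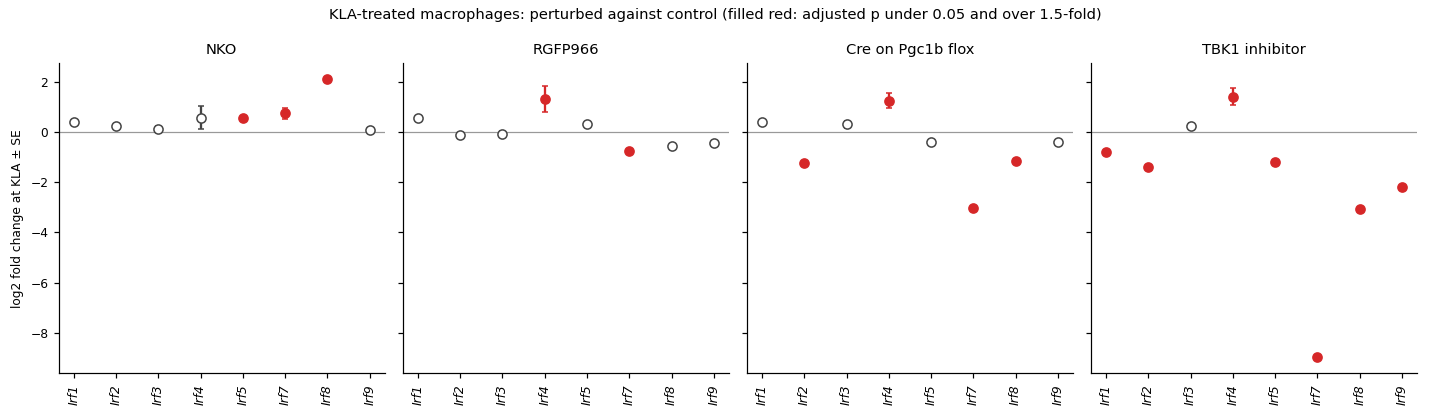
Log2 fold change of the 8 IRF genes (y axis, bars of 1 SE) in KLA-treated cells for NKO against WT, RGFP966 against none, libraries labelled Cre against no Cre in Pgc1b flox/flox cells, and TBK1i against DMSO, with called genes in filled red. Irf7 is lower in all but NKO, and Irf8 is 2.14 higher in NKO and lower with TBK1i (-3.06). For NKO, genotype, date stamp and sex cannot be told apart.

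The 4 perturbations of KLA-treated cells can be set side by side for single genes, each against its own control. Irf4 was higher with RGFP966 (1.32), in the libraries labelled Cre (1.25) and with TBK1i (1.42), and 0.58 ± 0.45 and not called in NKO. Ifnb1 was lower in NKO, with RGFP966 and with TBK1i. Irf7 was lower with RGFP966, Cre and TBK1i but higher in NKO, and Irf8 was lower with Cre and TBK1i but higher in NKO. With RGFP966 Irf8 was also lower, below the fold threshold in edgeR but called by DESeq2. In NKO_KLA genotype, date stamp and sex cannot be told apart, and the Irf7 call was lost without either WT_KLA library. The differences between these perturbations were not tested, because they lie in separate tables.

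**Figure D5:**
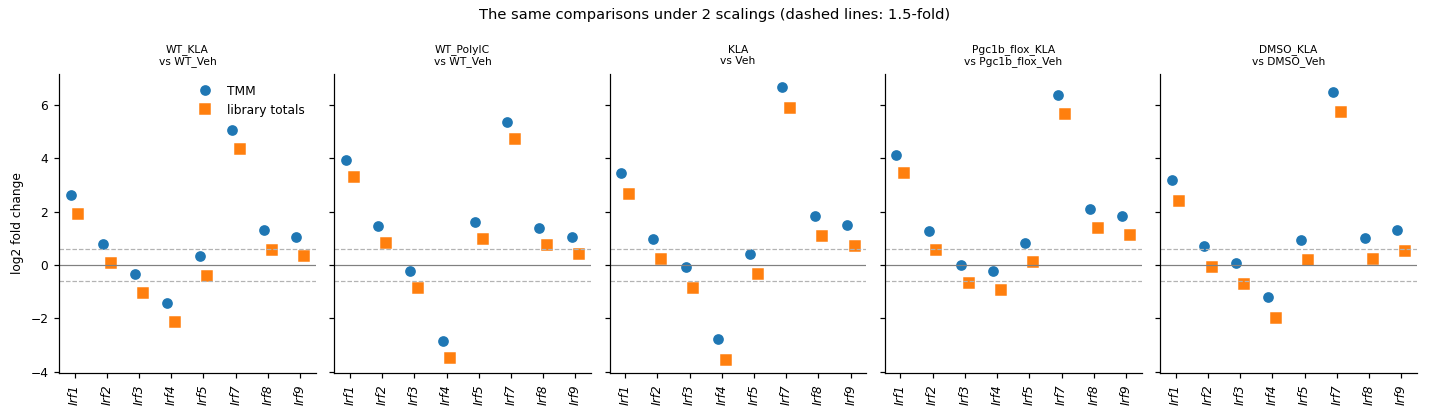
Log2 fold change of the 8 IRF genes (y axis) for KLA and poly I:C against vehicle in 5 comparisons, with TMM scaling (circles) and with library totals alone (squares), and dashed lines at 1.5-fold. The squares lie below the circles throughout, so that Irf2 in DMSO-treated cells turns from 0.71 to -0.071, while Irf1 and Irf7 stay above the upper line under both.

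Across the 22 groups the genes most like each member were found from Pearson's r of group mean log2(CPM + 0.5), over 10359 genes, as a description of groups that share tables and treatments. Irf7 was most like the antiviral genes Oas1g (r = 0.992), Oas1a (r = 0.992) and Oasl2 (r = 0.986), and Irf9 was most like Oasl2 (r = 0.975), Rtp4 (r = 0.974) and Ddx58 (r = 0.973). Ifnb1 was most like Peli1 (r = 0.96), Irf1 most like Rab12 (r = 0.966) and Brd2 (r = 0.964), and Irf2 most like Pou3f1 (r = 0.955). Irf8 was most like Marc2 (r = 0.941), Irf5 most like Pla2r1 (r = 0.937), Irf4 most like Plekhf1 (r = 0.935) and Irf3 most like Khsrp (r = 0.891).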

How the data were processed

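The members and the gene lists were chosen with earlier results of these data known. The deposited tables hold raw counts. Per the labels and the study's methods, the authors made poly-A, dUTP-stranded libraries and aligned the reads to mm10 with STAR, and per the file headers they counted reads in exons of 1 RefSeq transcript per gene with HOMER, without normalization. The headers name no strand option, so reads of a gene and an antisense partner may not be separated. The authors' tests used DESeq2.

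From these counts, each table was fitted separately in edgeR 4.0.16 (R 4.3.3) with filterByExpr, TMM scaling, 1 robust quasi-likelihood model of every group in it and 2-sided tests with Benjamini-Hochberg adjustment over 13407 (NCoR), 12196 (RGFP966), 12205 (Pgc1b) and 12332 (TBK1i) genes. An exact permutation test of 2 against 2 libraries cannot reach p below 0.05, so tests rest on a spread shared across genes and groups. Floors and counting intervals cover counting error only. Folds against groups at 0 counts use a floor of 3 counts per library and are lower bounds. Depth was 8.32 to 16.8 M gene counts per library (M, 1e6). TPM used transcript lengths in the tables. Named genes were the 9 members, the 3 genes most like each member (those printed), the 2 largest rises and falls per gene list, and Ncor1, Lyz2, Hdac3 and Tbk1 as checks. Ppargc1b, Bcl2l12, Gm17334 and some list genes were named after their values were seen. Hdac3 lay at 28.3 to 33.1 CPM in the RGFP966 table.

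The alternatives were DESeq2 1.42.0, its size factors in edgeR, no filter, a filter on a mean of 5 CPM, the compared groups alone, the replicate number as a block, each library left out, no fold threshold and other KLA controls for NKO_KLA. Library totals in place of TMM and the joint fit with WT_KLA were added after the data were seen. On simulated data for poly I:C against vehicle in WT cells (12760 genes), 100 of 100 genes changed 2-fold and 100 of 100 changed 4-fold were called, with 7 unchanged genes called. For TBK1i_KLA against DMSO_KLA (11984 genes) the values were 99, 100 and 2. The changed genes were drawn from well-counted genes, every gene had the same spread, and no shift between TMM and totals was simulated. These values therefore do not cover genes at low counts, such as Ifnb1 and Irf4, or calls that depend on scaling. Protein sequences were not used here, and 1 gene of the lists is not reported by name. Figures were drawn with matplotlib 3.10.9.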

Additional observations from a re-analysis of the deposited data

Results flagged for a closer look

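Interaction terms in edgeR's quasi-likelihood fit were called for the following genes, each a difference between the ligand response of 2 genotypes with a Benjamini-Hochberg adjusted p below 0.05 and a size above 1.5-fold, on the log2 scale. For NCoR loss and KLA they were Irf4 (1.25 ± 0.51), Irf5 (0.68 ± 0.07), Irf7 (2.62 ± 0.40) and Irf8 (2.13 ± 0.08), in libraries in which genotype, date and sex cannot be told apart. For NCoR loss and RANKL they were Irf4 (0.97 ± 0.34), Irf7 (2.35 ± 0.42), Irf8 (0.73 ± 0.08) and Irf9 (0.66 ± 0.10). For NCoR loss and poly I:C it was Irf7 (1.39 ± 0.40), and for NCoR loss and IL4 it was Irf4 (1.18 ± 0.26). For the libraries labelled Cre and KLA in Pgc1b flox/flox cells they were Irf2 (-1.20 ± 0.11), Irf4 (1.17 ± 0.41), Irf7 (-2.14 ± 0.14) and Irf8 (-1.21 ± 0.11). The 4 NCoR terms with vehicle share the WT_Veh and NKO_Veh libraries. The Irf4 calls were lost in 5 of 8 fits that left out 1 library for Cre with KLA, in 5 of 8 for NCoR loss with KLA, in 4 of 8 with RANKL and in 1 of 8 with IL4, and in DESeq2 the adjusted p of the Cre term was 0.081. The Irf7 term with poly I:C was lost in 7 of 8. Groups of 2 libraries were too small for a search for outlying samples.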

How the results depend on the processing

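Of 3760 values of the 9 genes under 56 alternatives, 44 of which left out a library, 3587 kept their side of the threshold, 99 of them with a change of sign while not called in either fit, 96 lost and 72 gained a call, and 5 reversed. The reversals were Irf2 (-0.071) and Irf3 (-0.72) for DMSO_KLA against DMSO_Veh and Irf3 for Pgc1b_flox_KLA against Pgc1b_flox_Veh (-0.69), all with totals in place of TMM, Irf4 for NKO_KLA against Pgc1b_flox_KLA in the joint fit (-1.27), and Irf7 for WT_IL4 without a WT_Veh replicate (-0.50 without 1, 0.76 without 2). Of the 9 genes, totals left 5 called for DMSO_KLA against DMSO_Veh and 5 for RGFP966_KLA against Veh.

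Without the fold threshold the genes called were 1 for the interaction of NCoR loss with IFNβ, 7 for that with KLA, 2 for NKO_IFNb, 3 for NKO_IL4, 2 for NKO_PolyIC and 4 for NKO_RANKL against WT, 7 for Pgc1b_flox_Cre_KLA against Pgc1b_flox_KLA, 7 for RGFP966_KLA against KLA, and 4 each for WT_IFNb and WT_IL4. DESeq2 called 1 for the interaction with IFNβ, 0 for that with IL4 (Irf4 had no adjusted p there) and 1 for NKO_Veh. The fits of the compared groups alone called 0 for the interaction with poly I:C, 2 for that with RANKL, 0 for NKO_Veh and 0 for WT_IFNb. No filter on low counts left 0 for the interaction with poly I:C and 1 for NKO_Veh, and DESeq2 size factors 1 for NKO_Veh. The filter on a mean of 5 CPM, which leaves out Ifnb1 and Irf4, left 2 for NKO_KLA, 0 for NKO_PolyIC and 1 for RGFP966_KLA. Except for these exclusions the cause of the changes was not tested.

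Replicate numbers did not pair the samples (correlations of same-numbered deviations -0.065 to 0.062). With the replicate block 1 gene was called for NKO_Veh, Irf4 being lost (adjusted p = 0.054), and 0 for the interaction with poly I:C, Irf7 being lost (adjusted p = 0.055), and it ended no other call of the comparisons in the text. Leaving out a library ended the interaction call of Irf4 in 5 of 8 fits for Cre with KLA, in 5 of 8 for NCoR loss with KLA, in 4 of 8 for that with RANKL and in 1 of 8 for that with IL4. With a library left out, the genes called ranged from 0 to 2 for the interactions with IFNβ and IL4, 0 to 1 for that with poly I:C, 2 to 4 for that with RANKL, 0 to 1 for NKO_IL4, 2 to 4 for NKO_KLA, 1 to 2 for NKO_Veh and 2 to 5 for RGFP966_KLA against KLA. Depth limits Ifnb1 and Irf4, whose counts reached the floor in some groups.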

Other observations

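Among the IRF partner factors, IL4 raised Batf3 and Batf and lowered Irf2bpl, and IFNβ raised Batf2 alone (0.77 ± 0.12 on the log2 scale) of 8, with 4.09% of all genes called higher with IFNβ. In NKO_KLA against WT_KLA, Tmem173, which encodes the adaptor STING, was higher by 2.19 ± 0.07 and Ticam2, the TLR4 adaptor TRAM, lower by 1.20 on the log2 scale (-1.20 ± 0.09), in libraries that differed in date and sex as well as genotype. In TBK1i_KLA against DMSO_Veh, where 26.8% of all genes were called higher and 30.5% lower (16% and 43.6% with totals), 4 of the 10 interferon-stimulated targets were called higher and 5 lower, 7 of the 8 receptor and ISGF3 genes were called higher and 1 lower, and Ikbke, the kinase related to TBK1, was higher by 2.15 ± 0.04.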
